A study of Mus musculus with 6 samples.

Results

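The clustered protocadherins are 58 mouse genes on chromosome 18 that encode cadherin-like adhesion proteins of neurons, and they were followed here through the transcripts assembled from the ventral lumbar spinal cord. Members were all genes of the GENCODE vM21 annotation whose symbol starts with Pcdha, Pcdhb or Pcdhg, out of 55450 annotated genes. On the plus strand of the mm10 assembly the 14 Pcdha first exons lie between 36930184 and 37146530, the 22 Pcdhb genes between 37264938 and 37524479, and the 22 Pcdhg first exons between 37661793 and 37825020. The Pcdhg genes comprise 12 of type A, 7 of type B and 3 of type C, and 2 of the Pcdha genes, Pcdhac1 and Pcdhac2, are also of type C. The annotation marks Pcdhgb8 as a polymorphic pseudogene. The annotation gives the name Pcdha11 to both of a pair of neighbouring genes, and the upstream one is called Pcdha10 here, after the RefSeq gene at the same place.

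Each Pcdha or Pcdhg gene has its own promoter and a large variable exon that codes for the extracellular cadherin repeats, the membrane segment and part of the tail. This exon is spliced to constant exons that all genes of the cluster share and that code for the common cytoplasmic end. Pcdhb genes have no constant exons and are mostly a single coding exon. A neuron chooses a few of the alternate promoters, a choice that involves CTCF, cohesin and DNA methylation, whereas the C-type promoters are used more uniformly. Proteins of matching identity bind each other across membranes, which lets the branches of a neuron tell self from other, and the gamma cluster is needed in mice for the survival of spinal interneurons.

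The study took the ventral part of the lumbar cord from C57BL/6 mice at 5 weeks of age and made poly-A RNA libraries, 3 from Gde2KO mice and 3 from wild-type (WT) mice. Gde2KO mice lack GDE2, the product of Gdpd5, an enzyme of the cell surface that cuts the glycosylphosphatidylinositol anchors of other proteins. The labels give no sex and no treatment, and do not say whether a library came from one animal or several. The p-values therefore measure the spread between these libraries only. In bulk tissue, fewer cells of a type and less RNA per cell cannot be told apart.

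Gdpd5 itself stood at 1.25, 1.20 and 0.952 FPKM (fragments scaled to transcript length and library size) in Gde2KO, against 5.41, 6.58 and 5.99 FPKM in WT. That is a log2 difference of -2.31 (fold 0.202) with a limma adjusted p of 0.00529. Adding up the FPKM of its transcripts instead gave -1.45 (adjusted p = 0.0735), and the replicate block gave an adjusted p of 0.155. The 6 motor neuron markers, among them Slc18a3 at 51.8 to 57.7 FPKM in Gde2KO and 31.9 to 54.2 FPKM in WT, were assembled in every library. Gde2KO replicate 3 stood apart in its levels over all features tested. Its log2 differences from the other libraries had a robust SD of 0.257 to 0.291, against 0.146 to 0.195 among the others. Gde2KO replicate 1 alone held the Y-linked gene Ddx3y, at 21.8 FPKM, and had Xist listed at 0. Its 4 meningeal markers summed to 29.7 FPKM, against 66.7 and 70.1 FPKM in the other Gde2KO libraries and 61.0 to 80.0 FPKM in WT.

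The variable region of a member is its exonic sequence that no other member shares, and its level is the mean FPKM over those of its bases that were assembled in at least 3 of the 6 libraries. A member was tested when it had at least 200 such bases and a mean of at least 1 FPKM. This held for 36 of the 58 members, 2 in Pcdha, 17 in Pcdhb and 17 in Pcdhg. Another 13 had no counted base, and 9 had some but missed a threshold. The constant exons of each cluster were tested as a feature of their own. A member listed at 0 had no assembled transcript of at least 200 bases on its counted bases. That can be a failed assembly as well as a low level.

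No clustered protocadherin passed the test between Gde2KO and WT. Limma called 0 of 36 tested members, beside 0.116% of all 12896 features tested (15 features; 0.0388% called higher and 0.0775% lower in Gde2KO), and 0 members had an unadjusted p below 0.05, beside 3.9% of all features. The smallest adjusted p of a member was 0.882. Among the tested members 13 were higher and 23 lower in Gde2KO by the sign of the fit, with a median log2 difference of -0.04 beside 0.00 over all features. In 0 of the 36 did the 3 Gde2KO libraries lie wholly above or below the 3 WT libraries, beside 10.8% of all features (5.06% higher and 5.79% lower). The count of called members was also 0 without Gde2KO replicate 1 and without Gde2KO replicate 3. The intervals are wide for part of the members: on the log2 scale the 95% interval reached a median of 0.59 to either side over tested members, against 0.28 over all features. With 3 libraries in each group the smallest exact two-sided permutation p is 0.10, so no exact test is given for single members.

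**Figure D1:**
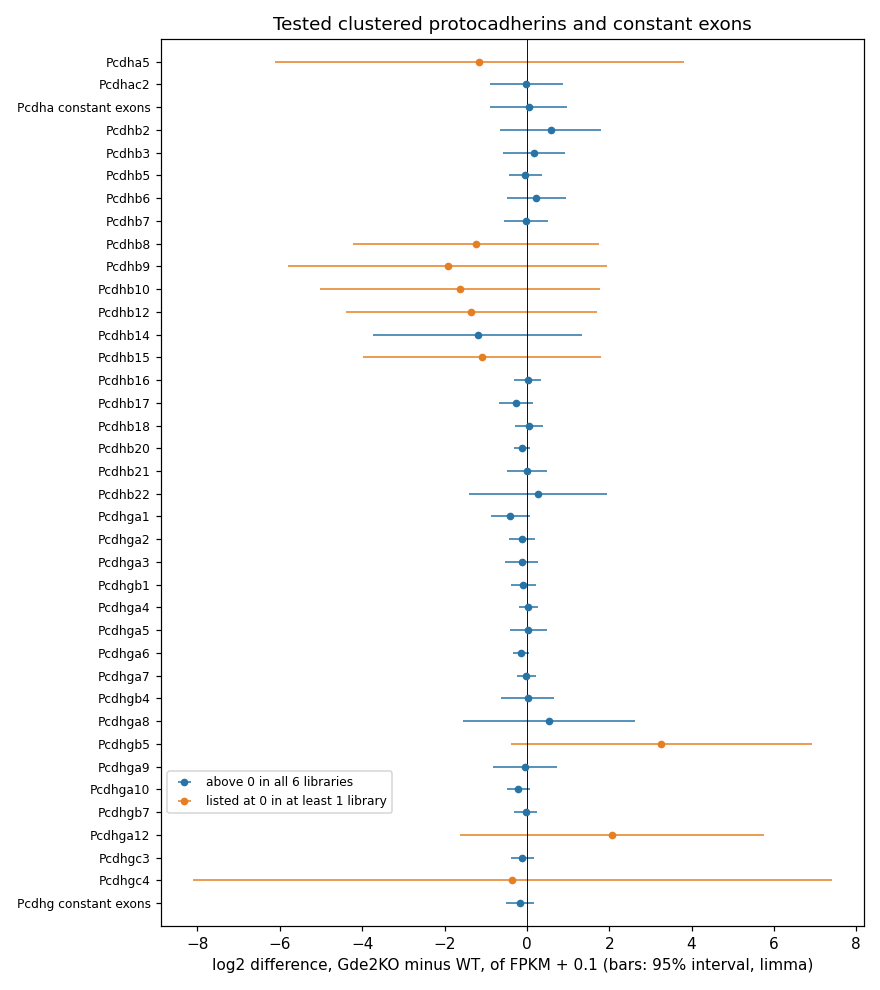
Log2 difference of FPKM + 0.1, Gde2KO minus WT, for the 36 tested members and both sets of constant exons, with 95% limma intervals. Members above 0 in all 6 libraries (27, blue) mostly lie near 0 with short intervals, the 9 listed at 0 in at least 1 library (orange) have long intervals, and every interval includes 0.

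All first exons of a cluster are spliced to its constant exons. The level of the constant exons therefore follows the total output where transcripts hold them whole. The Pcdhg constant exons stood at 129.6, 117 and 91.5 FPKM in Gde2KO, against 123, 124 and 127 FPKM in WT. The groups overlap, with Gde2KO replicate 3 the lowest of the 6 libraries and Gde2KO replicate 1 the highest. The fold was 0.893 (95% interval 0.706 to 1.13; limma adjusted p = 0.882), and the log2 difference of -0.16 became -0.02 without Gde2KO replicate 3. All 2119 constant bases of this cluster were assembled in at least 3 libraries.

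The Pcdha constant exons were several times lower and varied more. They stood at 23.3, 39.6 and 21.9 FPKM in Gde2KO, against 16.5, 31.5 and 35.8 FPKM in WT. Each group has high and low libraries, and the log2 difference of 0.04 (95% interval of the fold 0.539 to 1.97; limma adjusted p = 0.990) turned to -0.23 without Gde2KO replicate 2 and to -0.30 without WT replicate 1. Of 2860 annotated constant bases, 743 were counted. The assembled transcripts ended near base 37185540 in 4 libraries and ran to 37187610 in Gde2KO replicate 1 and to 37187635 in WT replicate 1. An intron inside the last constant exon was spliced in 3 of the 11 Pcdha transcripts that held constant exons. It was each time the Pcdhac2 transcript, in Gde2KO replicates 1 and 3 and in WT replicate 2. In Gde2KO replicate 3 this transcript held 315 constant bases, against 743 in the other one. In these 3 libraries the Pcdhac2 FPKM enters only part of the counted bases, so the level falls short of the total. Adding up the FPKM of transcripts instead gave a log2 difference of 0.22 (limma adjusted p = 0.938).

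Most of the constant-exon FPKM lay in transcripts with only a short piece of a first exon, except for Pcdha in WT replicate 1. Over the 6 libraries 25 assembled transcripts held constant exons, 11 in Pcdha and 14 in Pcdhg, out of 397 transcripts over members or constant exons. Pcdhac2 and Pcdhgc3 were joined to their constant exons with over 50% of their variable region in every library. The only other member so joined was Pcdhgc4 in Gde2KO replicate 3, at 7.76 FPKM (7.22 to 8.29, the authors' confidence bounds) with 71.2% of its variable region. The remaining 12 transcripts held only a short piece of a first exon, 19 to 779 bases in Pcdha and 121 to 313 bases in Pcdhg.

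The member that supplied this short piece differed from library to library. In Pcdha it was Pcdha8 in Gde2KO replicates 1 and 2 and Pcdha4 in Gde2KO replicate 3. In WT it was Pcdha11 in replicate 2 and Pcdhac1 in replicate 3, with no such transcript in replicate 1. In Pcdhg it was Pcdhgc5, Pcdhgc4 and Pcdhgc5 in Gde2KO replicates 1 to 3. In WT it was Pcdhgc4 with Pcdhgc5 in replicate 1, Pcdhgb8 in replicate 2 and Pcdhgc4 in replicate 3. These transcripts reached 16.8 to 29.4 FPKM in Pcdha and 27.9 to 90.0 FPKM in Pcdhg, above every alternate first exon. A level taken from such a transcript belongs to the constant exons and not to the member at its start.

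**Figure D2:**
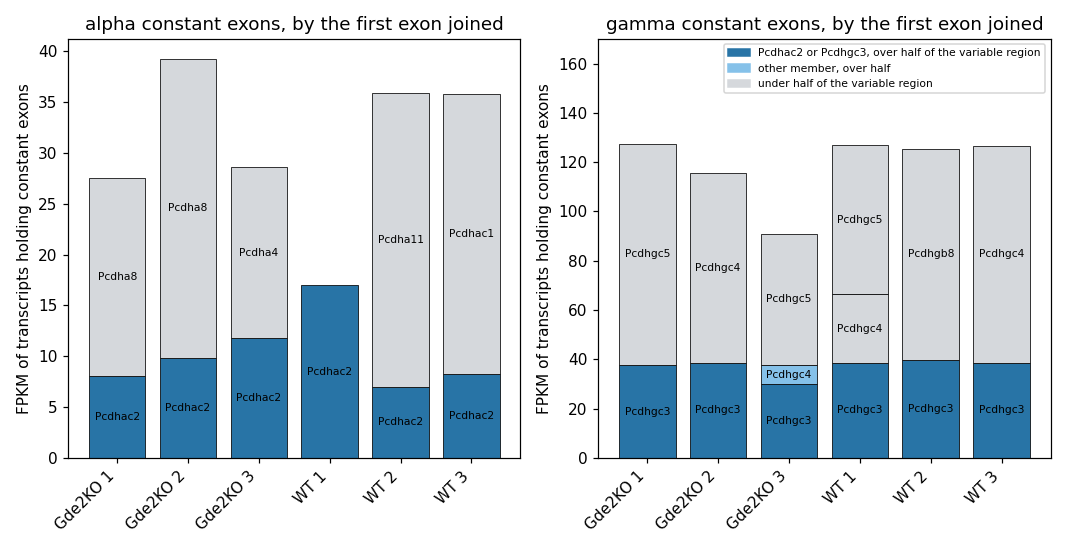
FPKM, as deposited, of each assembled transcript that holds constant exons of Pcdha (left) or Pcdhg (right), stacked by library and labelled with the member whose variable region it begins in. Pcdhgc3 (dark blue) takes 29.8 to 39.9 FPKM in each library, the grey transcripts with under 50% of a variable region take most of the rest and change their member between libraries, and WT replicate 1 has no grey transcript in Pcdha.

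Pcdhgc3, which in other work binds the Wnt scaffold protein Axin1, was the highest member. It stood at 38.1, 39.1 and 29.9 FPKM in Gde2KO, against 37.1, 39.4 and 38.5 FPKM in WT. Only Gde2KO replicate 3 lay outside the narrow range of the other 5 libraries. The fold was 0.926 (95% interval 0.759 to 1.13; limma adjusted p = 0.882), and without Gde2KO replicate 3 the log2 difference was 0.01. Its share of the FPKM of transcripts with Pcdhg constant exons was 29.4% to 33.4% in Gde2KO and 30.3% to 31.8% in WT.

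Pcdhac2, which is required for the even spacing of serotonergic axons in mice, was the only Pcdha member assembled almost whole in every library. Between 93.2% and 99.5% of its variable region was covered. Its level was 7.76, 9.96 and 11.8 FPKM in Gde2KO, against 16.4, 6.89 and 8.26 FPKM in WT. WT replicate 1 is the highest of the 6, and it is the library in which Pcdhac2 carried 100% of the Pcdha constant-exon FPKM. In the other WT libraries it carried 19.4% and 23.1%, and in Gde2KO 25.0% to 41.1%. The fold was 0.992 (95% interval 0.536 to 1.84; limma adjusted p = 0.997), and leaving out WT replicate 1 moved the log2 difference from -0.01 to 0.36.

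The remaining C-type members were hard to measure. Pcdhgc4, the gamma isoform that mouse genetics ties most closely to neuronal survival, had levels of 0, 21.3 and 7.80 FPKM in Gde2KO, against 14.3, 0 and 24.3 FPKM in WT. The zeros and the highest values occur in both groups, and the highest come from the short-piece transcripts. Without those transcripts its assembled bases stood at 0, 10.5 and 7.80 FPKM in Gde2KO, against 11.0, 0 and 10.2 FPKM in WT. Its log2 difference of -0.35 had a limma adjusted p of 0.989 and an interval spanning several doublings either way. Pcdhgc5 had no transcript other than the short pieces in any library, and Pcdhac1 only in WT replicates 1 and 3, at 1.51 and 1.62 FPKM over 65.2% and 54.1% of its variable region.

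**Figure D3:**
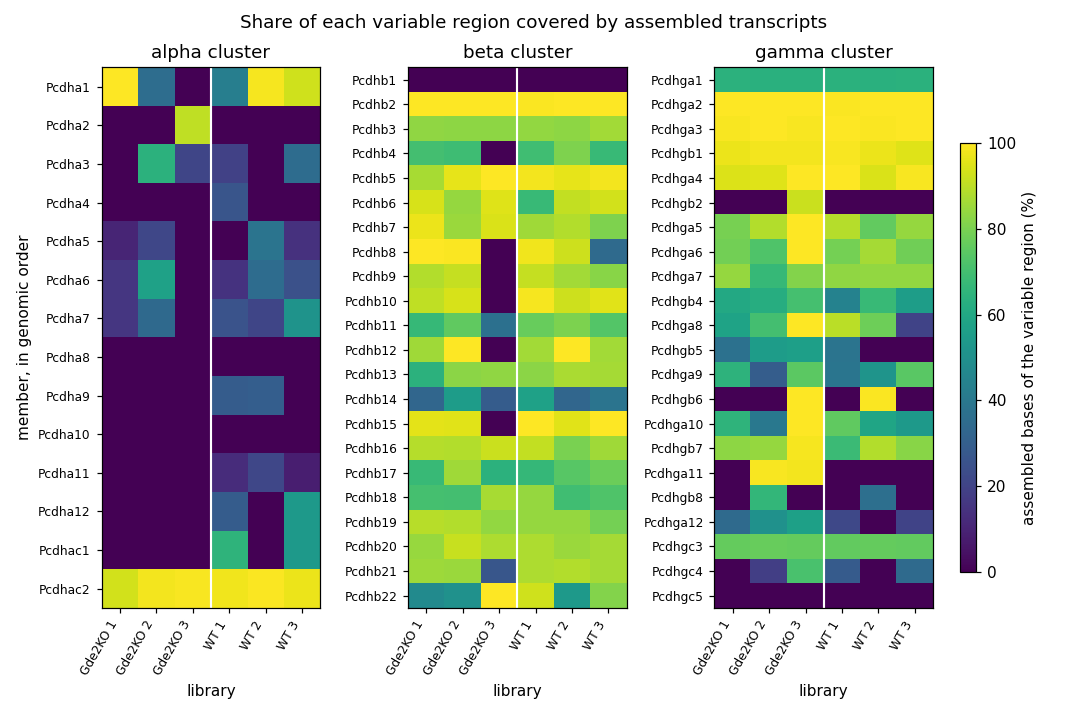
Percent of the bases of each variable region covered by assembled transcripts of at least 200 bases, leaving out transcripts that hold constant exons with under 50% of a variable region. Columns are the libraries, Gde2KO left of the white line and WT right, and rows are members in genomic order. Gde2KO replicate 3 has empty (dark) Pcdhb members and fuller Pcdhg members than the other libraries, and Pcdha rows other than Pcdhac2 are mostly incomplete.

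Alternate Pcdha exons were the least completely assembled. Of 12, 0 were over 50% covered in all 6 libraries, 6 in no library, and Pcdha1, covered over 50% in 3 libraries, stood at only 0.387 to 0.462 FPKM there. Pcdha8 and Pcdha10 had no assembled transcript other than short pieces. Over whatever bases were assembled, the other alternate members had medians from 1.04 FPKM in Pcdha3 to 2.13 FPKM in Pcdha4, above that of Pcdha1. Pcdha6 reached 1.29, 1.08 and 0 FPKM in Gde2KO, against 0.293, 1.58 and 1.01 FPKM in WT, below the mean needed for the test. Pcdha5 was the only alternate member tested, on 219 bases, at 4.11, 0 and 0 FPKM in Gde2KO, against 0, 1.70 and 2.48 FPKM in WT (limma adjusted p = 0.911). Its log2 difference of -1.15 was -2.95 without Gde2KO replicate 1 and -0.26 without Gde2KO replicate 3. In both members the groups overlap.

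Several Pcdha members were assembled in WT libraries and in few or no Gde2KO libraries. Pcdha11 had no assembled base in Gde2KO and stood at 3.38, 1.26 and 1.50 FPKM in WT on 79 counted bases, too few for the test. With none assembled in Gde2KO, a base could be counted only where all 3 WT libraries cover it, so this contrast follows from how bases were counted. The WT libraries covered 12.7%, 21.1% and 8.43% of its variable region. Pcdha7, chosen after its values were seen, stood at 0, 0.271 and 0 FPKM in Gde2KO, against 1.21, 1.08 and 1.75 FPKM in WT. Over whatever bases were assembled, counted or not, Pcdha7 stood at 2.14, 0.891 and 0 FPKM in Gde2KO, against 1.21, 1.44 and 1.68 FPKM in WT, and these overlap. Leaving aside the short pieces joined to constant exons, the number of Pcdha members with any assembled transcript was 5, 6 and 3 in Gde2KO, against 10, 7 and 9 in WT. The groups do not overlap in this count, which was chosen after its values were seen and has no test. With the short pieces counted they do overlap. Pcdha8 is then added in Gde2KO replicates 1 and 2 and Pcdha4 in Gde2KO replicate 3, which brings Gde2KO replicate 2 level with WT replicate 2. Without the short pieces the same count was 21, 21 and 15 in Gde2KO, against 21 in each WT library, for Pcdhb, and 16, 19 and 20 in Gde2KO, against 17, 16 and 16 in WT, for Pcdhg. With the short pieces left aside, Pcdhac1, Pcdha4, Pcdha9, Pcdha11 and Pcdha12 were assembled in WT libraries only. They were picked for this after their values were seen, so it is no result about them. How many other features do the same was not counted. Pcdha11 was assembled in 3 WT libraries, Pcdhac1, Pcdha9 and Pcdha12 in 2 each and Pcdha4 in 1. For Pcdha4 the absence in Gde2KO rests on leaving the short pieces aside. Its piece in Gde2KO replicate 3 covers 26.8% of its variable region, against 26.5% covered in WT replicate 1. Pcdha2 was assembled in Gde2KO replicate 3 alone, at 1.08 FPKM over 90.6% of its variable region. Depth and the levels of single reads are unknown from these files, so a level too low to assemble and an exon that is silent cannot be told apart.

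**Figure D4:**
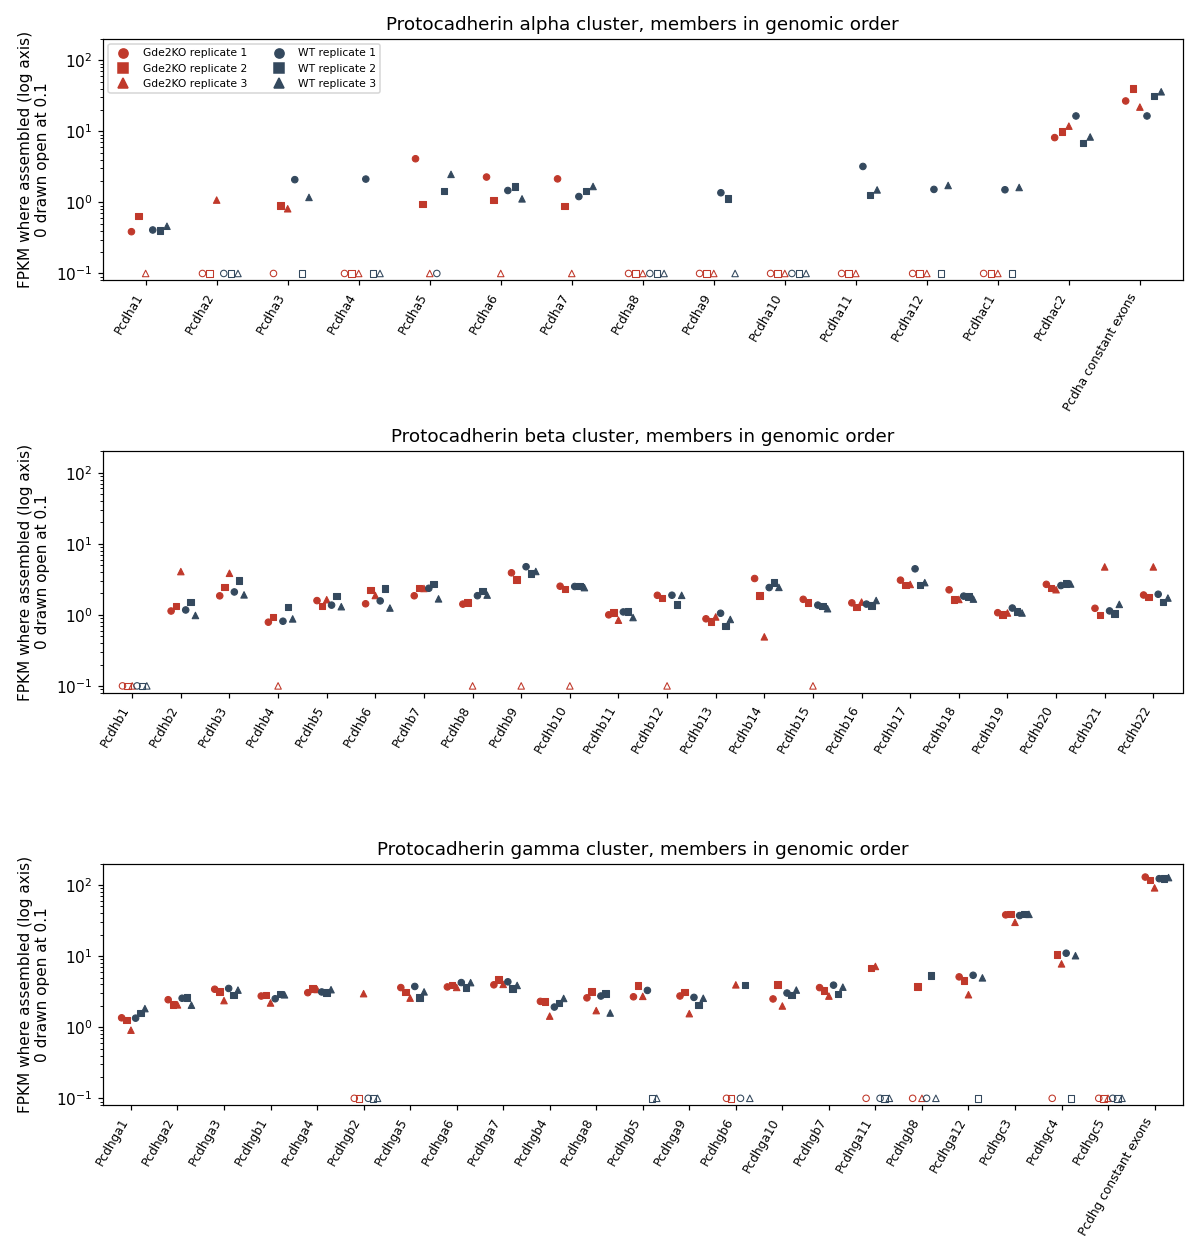
FPKM over the assembled bases of each member and of the constant exons (log axis), in genomic order within the 3 clusters, Gde2KO in red left of WT in dark blue, with a marker shape per replicate and open markers at 0.1 for a member listed at 0. Pcdhgc3 and the constant exons stand far above the other members, Pcdhb members mostly lie near 1 to 5 FPKM, and the open red triangles in Pcdhb belong to Gde2KO replicate 3.

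Pcdhb members were assembled evenly at low levels. Of 22 members, 20 were over 50% covered in at least 3 libraries, and their median levels there ran from 0.870 FPKM in Pcdhb13 to 3.90 FPKM in Pcdhb9, with a middle value of 1.70 FPKM. Pcdhb1, the most upstream, was assembled in no library. The 17 tested members had a median log2 difference of -0.04, and the 12 of them above 0 in all libraries had one of 0.01. Pcdhb members that stayed near a single value in all libraries include Pcdhb20, at 2.59, 2.39 and 2.26 FPKM in Gde2KO, against 2.58, 2.66 and 2.68 FPKM in WT. Its fold of 0.915 (95% interval 0.800 to 1.05; limma adjusted p = 0.882) is one of the narrowest in the family. Pcdhb17 stood at 2.74, 2.70 and 2.32 FPKM in Gde2KO, against 3.99, 2.63 and 2.89 FPKM in WT, with WT replicate 1 alone high (fold 0.832, adjusted p = 0.882 by limma).

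Gde2KO replicate 3 had a Pcdhb pattern of its own. Pcdhb4, Pcdhb8, Pcdhb9, Pcdhb10, Pcdhb12 and Pcdhb15 were listed at 0 there and Pcdhb14 stood at 0.119 FPKM, while all 7 were above 0 in each of the other 5 libraries. Pcdhb9 shows it: 3.90, 3.16 and 0 FPKM in Gde2KO, against 4.75, 3.71 and 3.78 FPKM in WT. Its log2 difference of -1.93 (limma adjusted p = 0.882) became -0.20 without that library. In the same library Pcdhb2, Pcdhb3 and Pcdhb22 were the highest of the 6 libraries, at 4.06, 3.82 and 4.71 FPKM. Pcdhb2 stood at 1.13, 1.32 and 4.06 FPKM in Gde2KO, against 1.16, 1.50 and 0.977 FPKM in WT (log2 difference 0.58, limma adjusted p = 0.882; 0.03 without Gde2KO replicate 3).

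Some Pcdhb transcripts spanned neighbouring genes. In Gde2KO replicate 3 a single transcript of 8754 bases, at 4.04 FPKM, ran across Pcdhb2 and Pcdhb3 with the sequence between them, and one of 7722 bases, at 4.70 FPKM, ran across Pcdhb21 and Pcdhb22. Transcripts over a pair of neighbouring Pcdhb members numbered 5 there, against 3 and 2 in the other Gde2KO libraries and 3, 2 and 3 in WT, and the longest of all, of 8946 bases, ran across Pcdhb15 and Pcdhb16 in WT replicate 1. Of the 26 Pcdhb transcripts of Gde2KO replicate 3, 7 had no strand, against 0 or 1 in each other library. Only 12 of 22 Pcdhb members were over 50% covered there, against 19 and 21 in the other Gde2KO libraries and 19 to 21 in WT. In Pcdhg it went the other way, with 20 of 22 members over 50% covered, against 14 and 16 in the other Gde2KO libraries and 12 to 15 in WT. Over whatever bases were assembled, counted or not, Pcdhb members summed to 34.6 FPKM in Gde2KO replicate 3. The sums were 38.8 and 36.3 FPKM in the other Gde2KO libraries and 36.7 to 40.9 FPKM in WT. A transcript over a pair of members enters this sum in both. Pcdhb21 and Pcdhb22 each stood at 4.72 FPKM in Gde2KO replicate 3, with 26.7% of the Pcdhb21 region covered.

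Alternate Pcdhg exons mostly stood above the Pcdhb genes and were close to each other, with middle values of 2.99 FPKM in type A and 2.80 FPKM in type B. Where over 50% covered in at least 3 libraries, type A members had median levels from 1.35 FPKM in Pcdhga1 to 3.98 FPKM in Pcdhga7, and type B members from 2.29 FPKM in Pcdhgb4 to 3.44 FPKM in Pcdhgb7. Pcdhga7 stood at 3.95, 3.76 and 3.89 FPKM in Gde2KO, against 4.34, 3.52 and 3.88 FPKM in WT, with the groups interleaved (fold 0.992, 95% interval 0.847 to 1.16, limma adjusted p = 0.986). The 14 tested Pcdhg members above 0 in all libraries had a median log2 difference of -0.06. With all 17 the median was -0.04, and it was 0.02 without Gde2KO replicate 3.

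The lowest p among Pcdhg members with lower levels in Gde2KO belonged to type A. Pcdhga1 stood at 1.35, 1.26 and 0.904 FPKM in Gde2KO, against 1.34, 1.56 and 1.81 FPKM in WT, where one Gde2KO library lies among those of WT (fold 0.756, 95% interval 0.542 to 1.05, limma adjusted p = 0.882). Its log2 difference of -0.40 was -0.24 without Gde2KO replicate 3. Pcdhga10 stood at 2.24, 2.33 and 1.99 FPKM in Gde2KO, against 2.76, 2.24 and 2.64 FPKM in WT. Pcdhga6 stood at 3.66, 3.61 and 3.63 FPKM in Gde2KO, against 4.25, 3.65 and 4.21 FPKM in WT. In both members WT replicate 2 falls to the level of the Gde2KO libraries, and their folds were 0.865 and 0.905 (limma adjusted p = 0.882 for each).

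The largest fitted differences came from zeros. Pcdhgb5 stood at 2.60, 3.88 and 2.72 FPKM in Gde2KO, against 3.30, 0 and 0 FPKM in WT. Where assembled, its level is alike in both groups, and in WT replicates 2 and 3 it was not assembled at all. The log2 difference of 3.27 (limma adjusted p = 0.882) passed the threshold when WT replicate 1 was left out (4.96, adjusted p = 0.0362) and was -0.12 when zeros were treated as missing (adjusted p = 0.937). Pcdhga12 stood at 4.69, 4.54 and 2.87 FPKM in Gde2KO, against 3.11, 0 and 2.66 FPKM in WT (log2 difference 2.07, limma adjusted p = 0.882), and without WT replicate 2 the difference was 0.44. Pcdhb6, with no zero, stood at 1.43, 1.99 and 1.87 FPKM in Gde2KO, against 1.13, 2.28 and 1.24 FPKM in WT (log2 difference 0.23).

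Some Pcdhg members were assembled almost whole in a few libraries and not at all in the rest. Pcdhga11 was covered over 99.0% and 98.2% of its variable region in Gde2KO replicates 2 and 3, at 6.81 and 7.17 FPKM, and was listed at 0 in Gde2KO replicate 1 and in all 3 WT libraries. Pcdhgb6 was covered over 99.9% in Gde2KO replicate 3 and 99.5% in WT replicate 2, at 3.95 and 3.90 FPKM, and nowhere else. Pcdhgb2 was assembled in Gde2KO replicate 3 alone, at 2.97 FPKM. Values as high as those of steadily assembled members are thus listed at 0 in other libraries of the same group.

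The sum of the assembled Pcdhg first exons can be set against their constant exons, to which each should be spliced. Levels were summed over whatever bases were assembled, counted or not, without the short-piece transcripts. This sum came to 64.8%, 93.3% and 96.2% of the constant-exon level in Gde2KO, against 78.5%, 68.1% and 72.4% in WT. Both values over 90% belong to the libraries in which Pcdhga11 was assembled, at 6.81 and 7.17 FPKM beside sums of 109 and 88.0 FPKM. Gde2KO replicate 3 also had the lowest constant-exon level, 91.5 FPKM. The part of either in these shares was not tested. In Pcdha the same share was 73.4%, 36.5% and 62.5% in Gde2KO, against 191%, 45.3% and 56.2% in WT, and only WT replicate 1 had first exons above its constant exons. There the Pcdhac2 transcript was the only one with constant exons, so Pcdhac2 and the constant exons both stood at 16.5 FPKM. Any further first exon then lifts the share above 100%, so it cannot be compared with the other libraries.

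Members differ in how much sequence they share, which bears on reads that map to several places. The share of 50-base words of the first exon found in another member was 10.1% to 23.4% over the 12 alternate Pcdha exons, highest in Pcdha7, whose closest match was Pcdha8. It was at most 11.99% in Pcdhb, in Pcdhb12, and it was 16.8% and 16.5% in Pcdhgb1 and Pcdhgb2, which match each other. The C-type exons shared none. Across the 58 members this share and the mean percent assembled had a Spearman correlation of -0.32, given as a description, since members share libraries and alignments. Within the clusters it was -0.01 in Pcdha, 0.14 in Pcdhb and 0.05 in Pcdhg. Pcdhgb1 was covered 95.2% to 99.1% in every library while its near match Pcdhgb2 was assembled in 1. How reads with several matches were placed is not stated here, so the split of reads between such pairs is uncertain.

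Genes that act with the clusters were not called either. Among regulators of promoter choice, 20 of 21 were tested, 12 were higher and 8 lower in Gde2KO by sign, 0 were called, and the median log2 difference was 0.01. Kdm1a, a histone demethylase, stood at 13.7, 14.2 and 15.4 FPKM in Gde2KO, against 12.5, 13.0 and 12.6 FPKM in WT, and the groups do not overlap (fold 1.13, limma adjusted p = 0.882). The cohesin subunit Stag2 did not overlap either, at 10.0 to 11.99 FPKM in Gde2KO and 8.62 to 9.99 FPKM in WT (fold 1.16, limma adjusted p = 0.882), whereas the cohesin subunit Smc1a overlapped (fold 0.946). In this list 3 of 20 tested genes did not overlap, beside 10.8% of all features. The third, chosen after its values were seen, was the repressor gene Rest, at 1.12, 1.13 and 1.09 FPKM in Gde2KO, against 1.18, 1.23 and 1.27 FPKM in WT (fold 0.916, limma adjusted p = 0.882).

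Partners of the cytoplasmic tails and the proteases that cut the proteins gave a like picture. Among 17 partners, which include the WAVE actin complex and focal adhesion kinases, 5 were higher and 12 lower in Gde2KO by sign and 0 were called. The WAVE complex gene Abi2 stood at 12.6, 7.81 and 12.3 FPKM in Gde2KO, against 13.2, 13.9 and 13.7 FPKM in WT, with Gde2KO replicate 2 far below (fold 0.785, limma adjusted p = 0.882). Its fellow subunits Cyfip1 and Wasf1 had overlapping groups, with folds of 1.11 and 0.876. Among 7 proteases 3 were higher and 4 lower and 0 were called. Adam10, which sheds the extracellular part, stood at 14.9, 14.3 and 15.5 FPKM in Gde2KO, against 14.3, 13.3 and 13.1 FPKM in WT (fold 1.10, limma adjusted p = 0.882). The gamma-secretase subunits Aph1a and Psenen had folds of 1.28 and 0.914, both with overlapping groups.

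Protocadherins outside the clusters and the genes around them served as a comparison. Of 12 nonclustered protocadherins 11 were tested, with 4 higher, 7 lower, 0 called and a median log2 difference of -0.03. Pcdh17 stood at 8.18, 8.69 and 11.8 FPKM in Gde2KO, against 11.3, 12.6 and 11.0 FPKM in WT (fold 0.814, limma adjusted p = 0.882), with Gde2KO replicate 3 inside the WT range. Pcdh8 had a fold of 0.903 with overlapping groups. Pcdh1, which also lies near the gamma cluster, stood at 8.97, 8.52 and 6.56 FPKM in Gde2KO, against 9.50, 9.08 and 9.04 FPKM in WT (fold 0.865, limma adjusted p = 0.882), without overlap. Of 16 neighbouring genes 15 were tested, 3 higher and 12 lower, 0 called, with a median of -0.10. The deacetylase gene Hdac3 stood at 32.0 to 32.7 FPKM in Gde2KO and 33.1 to 35.2 FPKM in WT (fold 0.951), and Taf7, a subunit of the transcription factor TFIID that lies between the beta and gamma clusters, had a fold of 1.08 (limma adjusted p = 0.882 for both).

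The cell composition of the libraries can be read beside these values. None of the cell type lists held a called gene. Outside the general neuronal markers, Prph of motor neurons and Csf1r of microglia were wholly higher in Gde2KO. Tac1 of the superficial dorsal horn, Aldoc of astrocytes, Opalin of mature oligodendrocytes and Kdr of endothelium were wholly lower (limma adjusted p = 0.882 for each). Of all features, 10.8% had no overlap. By sign, 4 of 10 general neuronal markers, 5 of 6 of motor neurons, 2 of 7 of the superficial dorsal horn, 6 of 8 of astrocytes and 4 of 7 of mature oligodendrocytes were higher in Gde2KO. The same held for 2 of 4 precursor, 3 of 5 microglial, 0 of 4 endothelial, 0 of 4 meningeal (low in Gde2KO replicate 1, as given above) and 1 of 4 ependymal markers. The neuronal markers summed to 3996 to 4347 FPKM in Gde2KO and 3621 to 3896 FPKM in WT, and each of the 10 was above 0 in every library. All 3 Gde2KO sums lie above the WT sums, but a sum is weighted to abundant genes. Of the 10 markers, 2 (Eno2 and Uchl1) were wholly higher in Gde2KO and 1 (Map2) wholly lower, beside 10.8% of all features without overlap. The median log2 difference of the list was -0.04. The part of the neuronal markers in the protocadherin levels was not tested. The dorsal horn markers tell of how much dorsal tissue a dissection holds. They summed lowest in Gde2KO replicate 3, at 245 FPKM. The sums were 340.5 and 321 FPKM in the other Gde2KO libraries and 273 to 287 FPKM in WT. This sum too is weighted to abundant genes: Calb2 stood at 156 FPKM in Gde2KO replicate 3, above the 129 to 150 FPKM of WT. Weighted alike, the genes deviated on average from the WT mean by 0.35, -0.24 and -0.76 on the log2 scale in Gde2KO. WT libraries deviated by 0.08, -0.05 and -0.03. The part of the dorsal horn markers in the low Pcdhb members of Gde2KO replicate 3 was not tested.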

How the data were processed

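Each deposited file is one library's transcript assembly with FPKM values and confidence bounds that the authors computed. Per the submitters' processing notes, TopHat2 2.1.1, Cufflinks 2.2.1 and Cuffdiff 2.2.1 were used with build mm10, as was FastQC. Read totals per library, and so depth, are unknown.

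Transcripts of at least 200 exonic bases were matched to GENCODE vM21 by exon and strand. Those without a strand (13.1% to 14.1% of a library) were matched on either strand, unless an opposite gene was there. Median-of-ratios factors (0.983 to 1.03) scaled the libraries, apart from transcript FPKM given as deposited. Tests used limma 3.58.1 (R version 4.3.3) with trend and robust moderation over 12896 features, two-sided, Benjamini-Hochberg adjusted, at a threshold of 0.05, on the scale of log2(FPKM + 0.1), where changes of low genes are understated. The script was tested on simulated data.

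The members and lists were chosen with earlier results of these data known. Named members are the C-type members, the 3 highest per cluster and the 4 of smallest p in each direction. Members listed at 0 in a single genotype are named too. Of each list other than the cell type lists, the 3 genes of smallest p are named. Genes of the cell type lists follow no such rule and were named after their values were seen.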

Additional observations from a re-analysis of the deposited data

How the results depend on the processing

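Over 22 alternatives the count of called members stayed at 0, except that Pcdhgb5 was called without WT replicate 1 (range 0 to 1 when replicates were left out), and the Pcdhg constant exons ranged from -0.27 to -0.02 on the log2 scale. The count of called features, 15, was 4 with a pseudocount of 0.01, 8 over all annotated bases, 4 with zeros as missing and 10 to 25 with a replicate left out. Same-numbered libraries did not deviate together (correlations 0.01, 0.04 and -0.07 for replicates 1 to 3), and pairs of different numbers gave -0.06 to 0.05. Deviations within groups of 3 libraries cannot settle whether the numbers pair them. With the replicate block 2 features and 0 members were called, and Gdpd5 stood at -2.31 (adjusted p = 0.155). With the plain sum of transcripts Gdpd5 stood at -1.45 (adjusted p = 0.0735). The cause was not tested for any of these changes.

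The following members and constant exons changed sign, none of them called in the setting that turned it. The Pcdha constant exons ranged from -0.30 to 0.26 with a replicate left out. With the plain sum Pcdhac2 was at 0.030, Pcdhb20 at 0.12, Pcdhga7 at 0.13 and Pcdhb6 at -0.10. Pcdhga7 was at 0.0043 under quantile normalization and -0.084 to 0.064 with a replicate left out, Pcdhac2 at -0.26 to 0.36, Pcdhgc3 at -0.18 to 0.011 and Pcdhgc4 at -2.87 to 1.99. Pcdhgc4 was at 0.33 with no minimum transcript length. With zeros as missing Pcdha5 was at 0.97 and Pcdhgb5 at -0.12. Leaving out the short-piece transcripts and using first exons only were added after seeing the data, and neither changed a call or a direction.

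The assembled coverage limits these values: 22 of 58 members were over 50% covered in all 6 libraries and 8 in none.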
